A study of Mus musculus with 6 samples.

Results

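Leptin, encoded by Lep, is the hormone by which white fat cells report the size of the fat store. It acts through the receptor encoded by Lepr, chiefly in the hypothalamus, to limit food intake. The mice were ob/ob (B6.V-Lepob/J), whose Lep gene carries a nonsense mutation on the C57BL/6J background. Their fat cells still transcribe the gene, but the truncated product has no hormonal activity, and the animals become obese and insulin resistant. The transcript itself therefore remains measurable with an oligonucleotide probe. Every animal of the series carried this genotype, so no array with functional Lep was at hand as a comparison.

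Lep was represented by 1 probe (mMC014373), chosen by its symbol in the platform annotation, out of 29922 probes and 16675 gene symbols. The data were 6 one-colour arrays of total RNA, 1 for each combination of treatment and tissue label. Mice were fasted for 4 h and received by mouth either MCSE, a water extract made from seeds of Momordica charantia (bitter melon), or PBS, the saline vehicle. An intraperitoneal glucose load of 1 g/kg followed 15 min later, and muscle, adipose tissue and liver were collected 4 h after the glucose. The labels gave neither the age of the animals nor the number of mice behind an array. The arrays were labelled MCSE muscle, PBS muscle, MCSE adipose, PBS adipose, MCSE liver and PBS liver. With 1 array for each, no p-value was computed for MCSE against PBS.

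Several arrays stood apart or did not match the markers of their label. The MCSE adipose and MCSE liver arrays had a Pearson correlation of 0.982 over all probes, the highest of the 15 array pairs. The PBS adipose array correlated with the 5 other arrays at 0.307 to 0.517, whereas those 5 correlated with each other at 0.752 or more. The median of the proteasome genes, which every tissue uses, was 8.94 in log2 on PBS adipose, against 12.74 to 13.13 on the 5 others. The names "adipose" and "liver" below are labels of arrays. The comparison with Adipoq, the ranges, the fits and the nearest genes are also given without adipose arrays.

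The gene lies on the forward strand of mouse chromosome 6 (GRCm38.p6, positions 29060221 to 29073876, from RefSeq). The 250 bases before its annotated start are shown because C/EBP alpha, a factor of fat-cell differentiation, is known to activate the mouse Lep promoter through a site in it, and the same stretch of Adipoq, the gene of the fat-cell hormone adiponectin, is shown for contrast. Both were taken from RefSeq (GRCm38.p6, forward strand), at chr6:29059971-29060220 and chr16:23146286-23146535. Capitals mark every match on either strand to TTGCGCAA, a palindromic form of the C/EBP site, to GGGCGG, the GC box bound by Sp1, to TATAA, or to CCAAT.
Lep: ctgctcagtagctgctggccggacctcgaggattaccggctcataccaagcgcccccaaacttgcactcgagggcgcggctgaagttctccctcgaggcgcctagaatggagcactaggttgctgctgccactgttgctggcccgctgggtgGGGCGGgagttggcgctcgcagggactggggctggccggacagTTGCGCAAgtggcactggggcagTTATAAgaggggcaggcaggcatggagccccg
Adipoq: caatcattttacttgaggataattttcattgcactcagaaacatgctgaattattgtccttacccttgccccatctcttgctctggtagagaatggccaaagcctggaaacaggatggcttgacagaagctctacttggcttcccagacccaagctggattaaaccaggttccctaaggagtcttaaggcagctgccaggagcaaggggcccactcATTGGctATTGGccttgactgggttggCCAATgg
The Lep window held TTGCGCAA at positions -55 to -48 from the start, GGGCGG at -98 to -93, and TATAA on both strands in overlap at -32 to -27. The Adipoq window held CCAAT 3 times and none of the others. Of 32851 promoter windows of this length, TTGCGCAA occurred in 54 (0.164%), GGGCGG in 32.7%, TATAA in 22.8% and CCAAT in 33.8%. Among 42 adipocyte genes listed for the comparison below, 30 had a window, and TTGCGCAA occurred in 0 of these, GGGCGG in 17, TATAA in 7 and CCAAT in 9. A match is a run of letters and not a measured binding site.

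Lep was among the brightest probes on 3 of the arrays and near the middle of the scale on 1. In muscle, its intensity was 7832 on the MCSE array and 8096 on the PBS array, or 12.94 and 12.98 on the log2 scale. On the arrays labelled adipose it was 66501 with MCSE and 530.25 with PBS (log2 16.02 and 9.05). On the arrays labelled liver it was 62513 with MCSE and 33603 with PBS (log2 15.93 and 15.04). The MCSE adipose, MCSE liver and PBS liver arrays were thus high, both muscle arrays intermediate, and the PBS adipose array low. In bulk tissue a larger share of fat cells and more Lep RNA per fat cell cannot be told apart.

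Ranks put these levels on a common footing, because the deposited values gave every array the same distribution. Lep ranked 6th among 29922 probes on the MCSE adipose array, 18th on the MCSE liver array and 177th on the PBS liver array. It ranked 1122nd on the MCSE muscle array and 1080th on the PBS muscle array, so that 3.75% and 3.61% of the probes were brighter. On the PBS adipose array it ranked 14140th, with 47.3% of the probes brighter. The brightest probe of any array lay at 16.41, only 0.39 above Lep on the MCSE adipose array and 0.48 above it on the MCSE liver array. The rank of a probe also depends on how well its sequence hybridises, so it does not give the number of Lep transcripts relative to other genes.

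The order of the arrays by Lep level was set against technical error. The gauge was the scatter, per probe, between the differences reported by 2 probes of the same gene, which holds probe error and transcript differences but no variation between mice. MCSE adipose exceeded MCSE liver by 0.09, less than the gauge of 0.33 for that pair. MCSE liver exceeded PBS liver by 0.90 (gauge 0.61), and PBS liver exceeded PBS muscle by 2.05 (gauge 0.94). PBS muscle and MCSE muscle differed by 0.05 (gauge 0.52). The step from MCSE muscle down to PBS adipose was 3.88 (gauge 1.51). The MCSE adipose and MCSE liver arrays, and likewise the 2 muscle arrays, could not be ordered by Lep. The other gaps exceeded the gauge. Since it is a single SD without variation between mice, passing it does not establish an order of treatments or tissues.

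**Figure D1:**
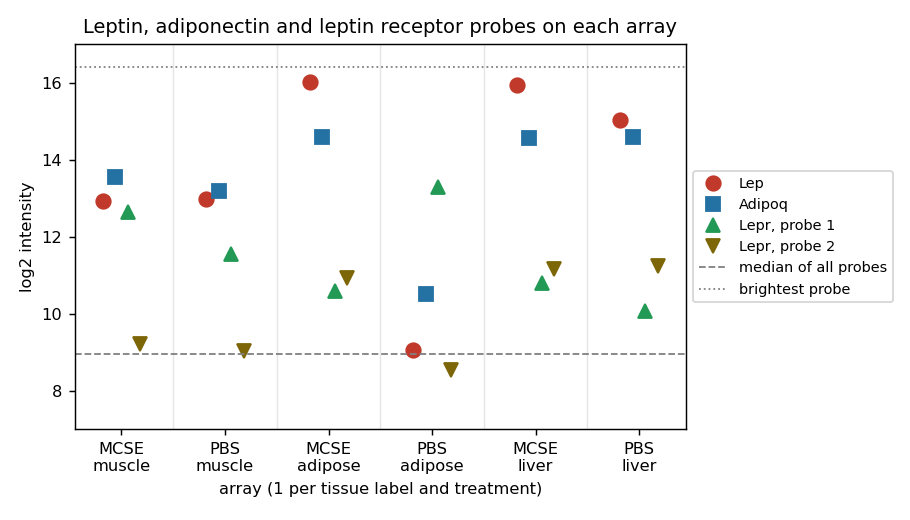
Log2 intensity (vertical axis) of the Lep probe, the Adipoq probe and both Lepr probes on each of the 6 arrays (horizontal axis), 1 point per probe and array, with the median of all probes (8.95) and the brightest probe (16.41) as lines. Lep lay within 0.5 of the brightest probe on the MCSE adipose and MCSE liver arrays and at 9.05 on the PBS adipose array, and the 2 Lepr probes differed in opposite directions between the adipose arrays.

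Adiponectin was taken as the sign of fat-cell RNA, since adipocytes are its main source. The Adipoq probe read 13.54 on the MCSE muscle array and 13.17 on the PBS muscle array. On the adipose arrays it read 14.58 with MCSE and 10.50 with PBS. On the liver arrays it read 14.56 with MCSE and 14.59 with PBS. Its 3 highest values, on the same 3 arrays as those of Lep, lay within 0.03 of each other, while Lep differed by up to 0.98 among them (MCSE adipose against PBS liver). The readings of 2 different probes on 1 array are not compared in size. Each probe was followed from array to array instead.

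Followed in this way, Lep differed more steeply than Adipoq in 14 of the 15 pairs of arrays, and in 5 of the 6 pairs without the adipose arrays. The pairs share arrays and are not independent. Between liver and muscle labels, the MCSE pair gave 2.997 for Lep and 1.03 for Adipoq, and the PBS pair gave 2.05 for Lep and 1.41 for Adipoq. Between adipose and muscle labels, the MCSE pair gave 3.09 for Lep and 1.05 for Adipoq. The PBS pair gave -3.93 for Lep and -2.67 for Adipoq, so that both probes read lower on the array labelled PBS adipose than on PBS muscle. The exception was the muscle pair, where the size of the MCSE minus PBS difference was larger for Adipoq (0.36) than for Lep (-0.05). Whether the gap between the genes exceeds replicate error was not tested, since the design has 1 array per group.

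Other adipocyte genes followed the same division of the arrays. Between liver and muscle labels, 23 of the 36 measured adipocyte genes (42 listed) were at least 2-fold higher and 2 lower in the MCSE pair, where 21% of all measured genes were higher and 16.8% lower. In the PBS pair 21 were higher and 4 lower, against 19.5% and 17.5% of all genes. Lep exceeded 35 of the 36 in the MCSE pair, all but Rbp4, and 26 of the 36 in the PBS pair. Of all measured genes, 98.4% and 94.6% lay below Lep in the MCSE and PBS pairs. That Lep exceeded most genes was thus not particular to the adipocyte genes. Between adipose and muscle labels, 22 of 36 were higher and 2 lower in the MCSE pair, against 21.1% and 17% of all genes. Lep exceeded all 36 there, and 98.5% of all measured genes. In the PBS pair 4 of 35 were higher and 25 lower, against 31.9% and 32% of all genes. Between adipose and liver labels, 1 of 36 was higher and 0 lower in the MCSE pair (2.28% and 0% of all genes), whereas 2 were higher and 30 lower in the PBS pair (32.7% and 34.6%). These pairs share arrays and are not independent of each other.

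The full range of Lep over the 6 arrays was 6.97, against 4.09 for the median of 37 adipocyte genes on the array, of which 34 had a narrower range. These genes came from 3 lists, of secreted products, of lipid storage genes, and of receptors and transcription factors. Only Car3, an abundant carbonic anhydrase of fat and muscle (7.37), Cav2, a caveolin (7.09), and Cidec, a lipid-droplet protein (7.02), had a wider one. Without the PBS adipose array, the range of Lep was 3.09 and 30 of the 37 genes had a narrower one, and 30 also did without both adipose arrays. Some of these genes stayed close to the brightest probe (16.41). Fabp4 read 15.66 to 16.14 and Lpl 15.61 to 15.97 without the PBS adipose array. The part of this upper limit in their narrow ranges was not tested. Of the 37 genes, 30 had their lowest value on the PBS adipose array and 4 had their highest there. Neither these counts nor the ranges were set against all genes, so they are not read as a trait of adipocyte genes. Sfrp5, a secreted Wnt inhibitor of fat, was one of the 4, at 15.96, against 12.46 on the MCSE adipose array. Aqp7, the glycerol channel of fat cells, read 13.42 on the PBS adipose array and 10.64 on the MCSE adipose array.

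The lists of marker genes showed what else varied with Lep. White adipocyte markers (12 of 14 on the array) had a summed intensity of 17.97 in log2 on both the MCSE adipose and MCSE liver arrays and 17.78 on the PBS liver array. The sum was at most 17.03 on the muscle arrays and 14.59 on the PBS adipose array. Hepatocyte markers (12 of 12) summed to 16.66, 16.66 and 16.87 on the MCSE adipose, MCSE liver and PBS liver arrays, against 13.49 and 13.91 on the MCSE and PBS muscle arrays and 14.11 on the PBS adipose array. Kidney markers (7 of 8) summed to 17.32, 17.38 and 16.72 on the first 3 arrays, against 13.58 and 12.07 in MCSE and PBS muscle and 13.51 on the PBS adipose array. The 3 arrays on which Lep was brightest were therefore also those with the highest adipocyte, hepatocyte and kidney sums. A sum is led by its brightest members, and not every hepatocyte marker followed it. Ahsg and Cps1 were highest on the PBS adipose array, at 12.79 and 11.20, against at most 10.27 and 10.25 on those 3 arrays. The median of the hepatocyte list was at least 11.93 on those 3 arrays and at most 9.35 elsewhere. The part of these marker sets in the Lep level was not tested.

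The muscle arrays also carried transcripts of adipocyte marker genes. On the MCSE and PBS muscle arrays, 9 and 6 of 12 white adipocyte markers reached the upper quartile of all probes (10.20), and Lep at 12.94 and 12.98 lay above it as well. The share of all genes past this cut was not counted. The markers include Car3, a gene of fat and muscle, at 15.45 and 14.98 on these arrays. Fast muscle markers had medians of 15.90 and 15.86 there, and of at most 9.51 elsewhere. Heart markers had medians of 11.56 and 12.19 on the MCSE and PBS muscle arrays, 8.36 and 12.08 on the MCSE and PBS adipose arrays, and 8.56 and 10.29 on the MCSE and PBS liver arrays. On the PBS adipose array, 4 of the 12 white adipocyte markers and 3 of 27 proteasome genes reached the upper quartile. On each other array 25 or 26 of the 27 proteasome genes did. The low Lep value thus coincided with low values of a gene set shared by all tissues.

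**Figure D2:**
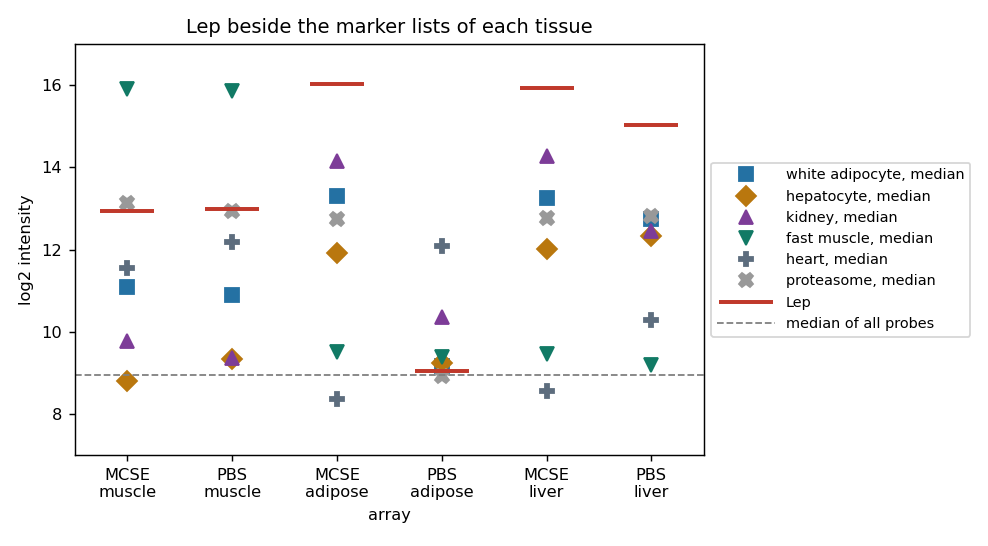
Log2 intensity of Lep (red bar) and the median log2 intensity of 6 marker lists (symbols) on each array. Lep was high on the 3 arrays where adipocyte, hepatocyte and kidney medians were all high, and at 9.05 on the PBS adipose array, where the proteasome median was 8.94.

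Whether MCSE was accompanied by a different Lep level was asked within each label. In muscle, the MCSE minus PBS difference of Lep was -0.05, close to the median of -0.05 over 10711 measured genes and within the gauge of 0.52. A 2-fold higher value was seen for 3.9% of these genes and a 2-fold lower one for 1.88%. The 35 measured adipocyte genes had a median of 0.22, with 0 past 2-fold in either direction. The differences ranged from -0.64 for Gpd1, which makes the glycerol backbone of fat, to 0.71 for Aqp7. Lep lay above 11 of them and below 24, and above 50.3% of all measured genes.

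On the arrays labelled liver, Lep was 0.90 higher with MCSE, a 1.86-fold difference that exceeded the gauge of 0.61 but not 2-fold. Over 11342 measured genes the median was -0.02, with 8.27% at least 2-fold higher and 6.01% at least 2-fold lower, and 89.5% of them lay below Lep. The 36 measured adipocyte genes had a median of 0.18, with 5 higher and 2 lower by 2-fold, and Lep exceeded 30 of the 36. The 5 were Klf15, a metabolic transcription factor (1.65), Cd36, a fatty acid transporter (1.61), Cebpa (1.24), Plin (now Plin1), the coat of the lipid droplet (1.10), and Cebpb (1.04). The 2 lower genes were Lcn2, a secreted lipocalin (-1.73), and Retnla, a resistin-like molecule (-1.15). Adipoq (-0.03), Fabp4, the fatty acid binding protein of adipocytes (0.09), and Cidec (-0.29) differed by less than the gauge. Cfd, the secreted protease adipsin, was at 0.48. Kidney markers were 2-fold higher in 5 of 7 cases on the same pair, with a median of 1.22. Heart markers were 2-fold lower in 5 of 5 measured cases, with a median of -1.47, and their sum was 11.63 with MCSE and 13.58 with PBS. The part of either in the Lep difference was not tested.

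On the arrays labelled adipose, Lep was 6.97 higher with MCSE, against a gauge of 1.73. The PBS value of 9.05 lay near the median of all probes (8.95), close to the dim end of what was counted as measured, so no fold is drawn from it. The background of this pair was wide. Differences over the 13135 measured genes had an SD of 2.19, with 37.5% past 2-fold upwards and 34.3% past it downwards. Adipocyte genes were higher in 31 and lower in 2 of 36 cases, with a median of 3.87, and Lep exceeded all but Car3 (7.37) and Cav2 (7.09). Of all measured genes, 99.9% lay below Lep. Cidec was at 6.92, Cfd at 6.23 and Adipoq at 4.08. Proteasome genes were 2-fold higher in 23 of 26 cases, with a median of 3.63, and hepatocyte markers in 10 of 12. The MCSE array of this pair was the one that nearly matched MCSE liver, and the treatment and the condition of the PBS array cannot be told apart.

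**Figure D3:**
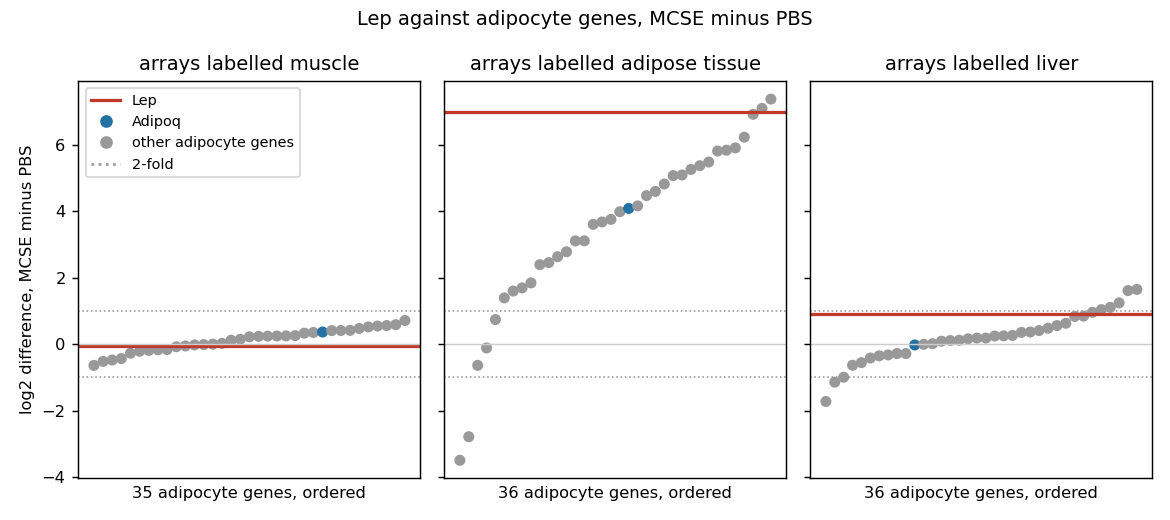
Log2 difference, MCSE minus PBS, of the measured adipocyte genes (points, ordered by value) on the arrays of each label, with that of Lep as a red line and 2-fold as dotted lines. Lep lay at -0.05 in muscle, inside the adipocyte genes, at 0.90 on the liver arrays, above 30 of 36, and at 6.97 on the adipose arrays, above 34 of 36. Of all measured genes, 50.3%, 89.5% and 99.9% lay below Lep in muscle, liver and adipose.

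Tissue labels were compared with the MCSE and PBS arrays of a label as its 2 samples, in a limma fit over 12100 genes. Because 1 of each 2 samples was from MCSE mice, the spread within a label includes whatever the extract did. Lep averaged 12.54 ± 4.93 on the adipose arrays, 15.48 ± 0.63 on the liver arrays and 12.96 ± 0.03 on the muscle arrays (log2, SD, n = 2 each). The liver minus muscle difference was 2.53 ± 2.07 (SE), with a limma adjusted p of 0.730. Adipose minus liver gave -2.95 ± 2.07 (limma adjusted p 0.711) and adipose minus muscle -0.42 ± 2.07 (limma adjusted p 0.961). A call needed an adjusted p below 0.05 together with a 2-fold difference. For liver minus muscle 0.364% of genes were called lower and 0% higher, against 0.355% lower and 0% higher for adipose minus muscle and 0% for adipose minus liver, and for liver minus muscle 0 of the 36 adipocyte genes tested were among them by limma. At an unadjusted p under 0.05 there were 3 of these 36 (8.33%), close to the share of 8.54% over all genes tested. For Adipoq the liver minus muscle difference was 1.22 ± 1.27 (SE).

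The SE was smaller when the adipose arrays were left out. In a fit of the 4 liver and muscle arrays, chosen after the data were seen, Lep was 2.53 ± 0.37 (SE) higher on the liver arrays, with a limma adjusted p of 0.00645, and both liver arrays exceeded both muscle arrays. This fit called 15.7% of genes higher and 10% lower. Of 36 adipocyte genes, 22 rose and 2 fell on the liver arrays relative to muscle in it, with a median of 1.29, against 0.03 over all genes tested. Rbp4, a retinol carrier made in liver and fat, was 3.68 higher, Thrsp, a lipogenic nuclear protein, 3.07, Cidec 2.95, Cav2 2.54 and Adipoq 1.22 ± 0.29 (limma adjusted p 0.0263). The 2 that fell were Slc2a4, the insulin-regulated glucose transporter of muscle and fat (-1.70), and Sfrp5 (-1.45). In the same fit 9 of 12 hepatocyte and 7 of 7 kidney markers rose, and all 9 fast muscle markers tested fell.

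The adipose and muscle comparison depended on which adipose array stood for the label. Without the PBS adipose array, Lep was 3.06 ± 0.45 (SE) higher on the remaining adipose array than in muscle (limma adjusted p 0.0109), in a fit that called 9.93% of genes higher and 5.91% lower. Without the MCSE adipose array, the difference was -3.91 ± 0.45 (limma adjusted p 0.00152), in a fit that called 23% of genes higher and 28.8% lower. In both fits the lone adipose array was assumed to vary like the other groups. The direction of this comparison for Lep was thus set by 1 array.

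The genes whose pattern was nearest to that of Lep were found by the root mean square difference between log2 profiles over the 6 arrays, each centred on its own mean, among 9558 genes that reached the upper quartile on some array. The nearest was H2-D1, a class I histocompatibility antigen (0.17). It was followed by Cyb5, cytochrome b5 (0.18), S100a10, a partner of annexin A2 (0.20), Ccdc80, a secreted matrix protein (0.32), and Cav2 (0.32). Next came Dpt, the matrix protein dermatopontin (0.36), Ces3, a carboxylesterase (0.38), Chpt1, an enzyme of phosphatidylcholine synthesis (0.40), Cfd (0.40) and Anxa2, annexin A2 (0.40). Of these 10, Cav2 and Cfd were on the adipocyte lists. H2-D1 read 12.61 and 12.09 on the MCSE and PBS muscle arrays, 15.28 and 8.39 on the MCSE and PBS adipose arrays, and 15.21 and 14.35 on the MCSE and PBS liver arrays.

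Among the 35 adipocyte genes with a value, the median distance from Lep was 1.19, against 2.43 over all genes considered. Cidec stood 11th in the whole order and Dgat2, the last enzyme of triglyceride synthesis, 30th. Adipoq stood 342nd, at 1.04. Sfrp5 (3.61) and Aqp7 (3.58) were the farthest. The profiles share arrays, of which MCSE adipose and MCSE liver were nearly the same, so likeness over 6 arrays is a description. Over the 4 liver and muscle arrays, an alternative chosen after the data were seen, 0 of the 10 nearest genes were again among the nearest 10. Of 7799 genes considered there, Cyb5 stood 13th, Chpt1 25th, H2-D1 56th and Anxa2, the farthest of the 10, 249th. The nearest were then Thnsl2 and Slc16a4, both at 0.04, and Adipoq stood 1361st, at 0.74. The median distance was 0.74 for the 35 adipocyte genes and 1.32 for all genes. The identity of the nearest genes thus depended on the arrays used. It also depended on the measure, since Pearson correlation over the 6 arrays shared 1 of the 10.

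**Figure D4:**
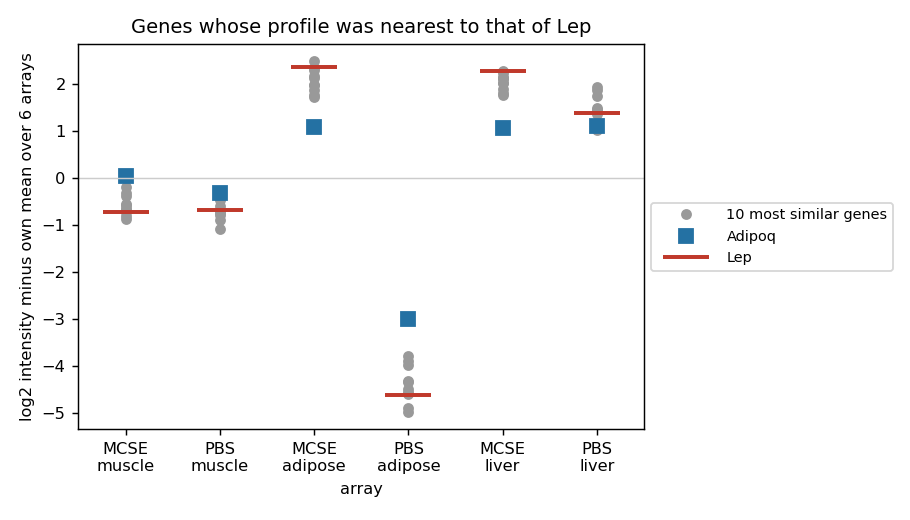
Log2 intensity minus each gene's own mean over the 6 arrays (vertical axis) for Lep (red bar), the 10 genes nearest to it (grey) and Adipoq (blue square). The 10 genes were chosen for lying close to Lep, and Adipoq varied less, over a range of 4.09 against 6.97 for Lep.

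Of 6 genes known to rise with fat mass or fat-cell size in mice, Mest and Npr3 differed between arrays much as Lep did, while Sfrp5 and Peg3 were highest on the PBS adipose array. Peg3, an imprinted zinc finger gene, read 9.09 with MCSE and 10.87 with PBS on the adipose arrays. Mest, an imprinted hydrolase-like gene, read 13.75 and 7.89 on the MCSE and PBS adipose arrays, 13.78 and 13.59 on the MCSE and PBS liver arrays, and 11.37 and 10.65 on the MCSE and PBS muscle arrays. Npr3, the clearance receptor of natriuretic peptides, read 14.31 and 8.67, 14.22 and 14.71, and 11.67 on both muscle arrays, in the same order of labels and treatments. Both were high and low on the same arrays as Lep, but Npr3 was not higher with MCSE on the liver arrays (-0.49). Nnat, a small membrane protein, kept a high value of 13.46 on the PBS adipose array, against 14.29 on the MCSE adipose array. On the liver arrays 0 of the 5 measured genes of this list passed 2-fold between MCSE and PBS, with a median of 0.19, against 8.27% higher and 6.01% lower of all measured genes. In the fit without adipose arrays, 3 of 6 rose on the liver arrays (Npr3 by 2.80, Mest by 2.68, Nnat by 2.32) and Sfrp5 fell, where 15.7% of all genes were called higher and 10% lower.

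Of 11 factors described as acting on the Lep promoter, 10 were on the array. On the liver arrays 2 of the 10 measured were at least 2-fold higher with MCSE, Cebpa (1.24) and Cebpb (1.04), and 2 were lower, Hif1a, the oxygen-regulated factor (-1.19), and Sp1 (-1.11). Their median was -0.25, and 8.27% and 6.01% of all measured genes passed 2-fold upwards and downwards on this pair. Pparg, the master factor of fat-cell differentiation, was at 0.96 and Srebf1, the sterol-regulated lipogenic factor, at -0.14. Cebpa read 12.87 and 11.63 on the MCSE and PBS liver arrays, 12.83 and 9.15 on the MCSE and PBS adipose arrays, and 10.33 and 10.09 on the MCSE and PBS muscle arrays. Of the adipose arrays, Sp1 read 11.93 with MCSE and 14.19 with PBS. In muscle 0 of 9 measured factors passed 2-fold in either direction, where 3.9% of all measured genes were higher and 1.88% lower.

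Lepr, the receptor, had 2 probes, whose patterns over the arrays differed. The first (mMC002415) read 12.64 and 11.55 on the MCSE and PBS muscle arrays, 10.59 and 13.28 on the MCSE and PBS adipose arrays, and 10.79 and 10.07 on the MCSE and PBS liver arrays. The second (mMC020372) read 9.20 and 9.02, 10.92 and 8.53, and 11.15 and 11.24 in the same order. The first was lowest on the PBS liver array, where the second was highest, and the reverse held on the PBS adipose array. Lepr gives rise to several spliced forms, and which of them each probe detects is not given in the sources used here.

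Genes of leptin receptor signalling differed in a mixed way. Of 11 on the array from a list of 14, 2 were at least 2-fold higher with MCSE in muscle and 1 was lower, with a median of 0.01, against 3.9% and 1.88% of all measured genes. The 2 were Socs3, the feedback inhibitor induced by the receptor (1.97), and the first Lepr probe (1.08). The lower gene was Stat3, the main transcription factor downstream of leptin (-1.07). On the liver arrays Socs3 (1.70) was the only member past 2-fold, with a median of 0.21, where 8.27% of all measured genes were higher and 6.01% lower. Jak2, the kinase bound to the receptor, differed by 0.01 between the muscle arrays and by 0.21 between the liver arrays. Ptpn1, a phosphatase that restrains Jak2, gave -0.59 for muscle and -0.45 for liver. Socs3 is induced by many cytokines besides leptin, and these mice have no functional leptin.

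Genes reported to be raised in the fatty liver of leptin-deficient mice included members of the adipocyte lists, Cidec, Pparg and Cd36. Of the 12 on the array, 2 were 2-fold higher with MCSE on the liver arrays, and 0 were lower, with a median of -0.15, against 8.27% and 6.01% of all measured genes. They were Cd36 (1.61) and Mogat1, a monoacylglycerol acyltransferase, at 12.15 on the MCSE and 10.65 on the PBS liver array. Scd1, the stearoyl-CoA desaturase, read 15.90 and 15.82 on the MCSE and PBS liver arrays. Adipoq and Lep are not among the genes of that list, and both were bright on the liver arrays. The source of their signal there was not tested.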

How the data were processed

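Cy5-labelled amplified RNA, from 5 μg of total RNA per sample, was hybridised to one-colour oligonucleotide arrays, per the labels' protocols. The authors deposited normalized intensity values on a linear scale, for 29922 probes on 6 arrays. The submitters' processing notes name limma. How background was corrected and arrays were normalized is not given in the sources used here. Sorted values differed between arrays by at most 0.0385 in log2 from their median, so all arrays had been given 1 distribution, which fixes a level by its rank. Symbols came from the platform annotation (21020 probes with 1 symbol, 8902 with none). List members were matched through RefSeq synonyms.

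A floor was set at the 5th percentile of all intensities (214.25) before taking log2. A gene was represented by its brightest probe. It was measured in a pair when either array reached the median of all probes (8.95), and tested between labels when at least 2 of 6 arrays did. Tissue labels were tested by limma 3.58.1 under R 4.3.3 (lmFit and eBayes, Benjamini-Hochberg adjustment, 3 residual degrees of freedom), a fit also tested on simulated data. The labels name no separate animals, so p-values measure the spread between these arrays. The number of arrays limits the precision. Genes named were Lep, Adipoq and Lepr, the 10 nearest to Lep, and list members that were brightest, past 2-fold or, beyond that rule, singled out after their values were seen. The members and lists were chosen with earlier results of these data known. Python 3.11.15, numpy 2.4.6, pandas 2.3.3 and matplotlib 3.10.9 were used.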

Additional observations from a re-analysis of the deposited data

Results flagged for a closer look

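The first Lepr probe differed between MCSE and PBS in opposite directions under different labels, each time by more than the scatter between probes of a gene. It was 1.08 higher with MCSE in muscle and 0.72 higher on the liver arrays, but at -2.69 on the adipose arrays. The difference between labels was not tested, since each rests on 1 array per treatment, and the second Lepr probe gave 0.18, -0.08 and 2.38 for muscle, liver and adipose.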

How the results depend on the processing

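The MCSE minus PBS difference of Lep moved by less than the scatter between probes under each of 4 alternatives per label (quantile normalization, median centring, 32 added before log2, the mean over probes), and all 24 recounts of genes past 2-fold stayed within 1.5 times. For Lep this is a weak check. The deposited arrays already shared 1 distribution, so quantile normalization and median centring could hardly move it. With 1 probe, the mean over probes was the same value. Lep had 1 probe, so no other Lep probe could be tried. Among genes instead of probes, 4.83%, 4.68%, 0.018%, 52.8%, 0.066% and 0.5997% were brighter than Lep on the MCSE muscle, PBS muscle, MCSE adipose, PBS adipose, MCSE liver and PBS liver arrays. By Pearson correlation in place of distance, 1 of the 10 nearest genes (Chpt1) was shared, and without both adipose arrays 0 were. Between labels, Lep kept its direction and its side of the threshold in 11 of 13 alternatives for adipose minus muscle, 11 of 13 for adipose minus liver and 11 of 14 for liver minus muscle, the exceptions being fits without an adipose array. Leaving out 1 array at a time gave Lep differences of -3.91 to 3.06 (adipose minus muscle), -6.43 to 0.54 (adipose minus liver) and 2.08 to 2.97 (liver minus muscle). The sign turned in the first 2 without the PBS adipose array. For adipose minus liver, limma gave an adjusted p of 0.000461 without the MCSE adipose array. For liver minus muscle, limma gave an adjusted p of 0.00645 without both adipose arrays (2.53). A lone adipose array adds no spread within its label. Leaving out either adipose array therefore repeats this fit and is no separate check. Over all alternatives the limma adjusted p of Lep ranged over 0.00152 to 1.00, 0.000461 to 0.994 and 0.00645 to 1.00 for the 3 comparisons. Genes called higher and lower ranged over 0 to 2787 and 0 to 3485 for adipose minus muscle, 0 to 3181 and 0 to 4279 for adipose minus liver, and 0 to 1894 and 0 to 1215 for liver minus muscle, against 0 and 43, 0 and 0, and 0 and 44 with all arrays. Without both adipose arrays 1894 and 1215 were called for liver minus muscle. Treatment as a term (replicate block), which pairs arrays by treatment only, called 0 genes lower in both comparisons with muscle and left the Lep differences at -0.42, -2.95 and 2.53. A trend in eBayes called 74 (adipose minus muscle) and 69 (liver minus muscle) lower, and no filter on dim probes called 1 higher for adipose minus muscle. The cause of these shifts was not tested.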
